A study of Mus musculus with 48 samples.

Results

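The genes described here are 10 genes that respond to low oxygen in many cell types: Vegfa, Adm, Ndrg1, Bnip3, Ankrd37, Bhlhe40, Rora, Egln1, Egln3 and Hif1a. They were chosen by name, as the rows of the deposited expression tables that carry these symbols. No threshold on measured values was applied, but the choice was made with earlier results of these data known. All 10 were found once in each of the 4 tables, among 55335 gene rows.

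Cells sense oxygen through the HIF pathway. In the presence of oxygen, prolyl hydroxylases such as the products of Egln1 and Egln3 mark HIF alpha subunits, among them the product of Hif1a, for destruction through the von Hippel-Lindau protein. When oxygen or hydroxylase activity falls, the alpha subunit accumulates, pairs with ARNT and binds short DNA motifs near its target genes. HIF alpha is controlled largely at the protein level, so the mRNA of Hif1a is not a readout of HIF activity. Osteocytes, the cells embedded in bone matrix, lie far from blood vessels in a tissue of low oxygen tension, and HIF signalling in bone is known for linking bone formation to vessel growth through Vegfa.

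The series profiled mouse bone and MLO-Y4 cells, a line of osteocyte-like mouse cells, by poly(A)-selected RNA sequencing, and the samples used here are labelled C57BL/6J and wild type. The tables hold 27 of its libraries, which form 9 groups of 3, and the other 21 of 48 samples were not analysed here. In the first experiment MLO-Y4 cells in serum-supplemented α-MEM received oligomycin A, which blocks the ATP synthase of mitochondria, at a working concentration of 50 µM in DMSO, or DMSO alone (vehicle), for 1 h. Medium from each of these cultures was then put on untreated MLO-Y4 cells for 2 h, which gave the oligomycin A supernatant and vehicle supernatant groups. In a second experiment MLO-Y4 cells received 2 µM ADP for 2 h or none. Bone fragments of 1-month-old mice were cultured for 48 h in medium in which other bone fragments had been kept, with 1 group titled as medium transfer and the other as control. The last group was cortical bone of femur and tibia, titled as 18 months old, with no culture stated.

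Several labels limit these groups. Vehicle samples carry a treatment label that names oligomycin A with DMSO, and the concentration in it is 50 mM, that of the stock in the protocol. Removal of the drug from the transferred medium is not stated. For young bone, the age of the animals that gave the medium is not tied to either group. Replicates are not described as separate cultures or animals, and p-values then measure only how these samples spread, which may be technical. Old cortical bone was, by its protocol, harvested along with soft tissue and marrow.

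By estimate the young bone libraries were the shallowest: in units of 1000000 fragments, depth was 1.62 to 6.32 there, against 15.0 to 25.4 for MLO-Y4 cells and 29.2 to 33.8 for old bone. The estimates rest on low values tending to lie near whole numbers of fragments, and those for bone are rough. Within 0.1 of a whole number lay 26.1% to 31.7% in young bone and 24.4% to 27.4% in old bone, against 20% if spread evenly. Each depth was picked for how well low values fitted whole numbers, so a share above 20% arises in part from that choice. Of 8 osteocyte markers 4 reached a mean of 1 FPKM (fragments scaled to transcript length and library size) in each MLO-Y4 group. Sost was listed at 0 in all 6 of these groups, and Dmp1, Mepe and Fgf23 were also at 0 in the vehicle and oligomycin A groups. In the other MLO-Y4 groups these 3 were at no more than 0.134 FPKM in any library. The osteocyte label therefore rests on the other markers in all 6 groups. Vehicle replicate 2 stood apart: rRNA-like and 7S genes took 27.1% of the FPKM summed over all genes, and 0.207% to 0.408% in each other library of that experiment. In young bone, satellite-like genes made up 81.7% to 88.6% of the summed FPKM of the controls and 66.1%, 5.80% and 89.9% of that of the 3 medium transfer libraries. Globin genes made up 43.6% to 45.3% of the summed FPKM of old bone.

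The start regions of the members show how they differ in the motif that HIF binds. The core of this motif is ACGTG or GCGTG, and both were searched on both strands in the 250 bases before each RefSeq start (GRCm38.p6), with overlapping matches of the palindrome CACGTG counted as 1 site. RefSeq entries were matched for 8 of the 10 members, 9 entries in all because Vegfa has 2 starts, and Bhlhe40 and Ndrg1 had no entry. Of these 9 entries 8 held the core at least once (88.9%), as did 38.6% of all 32851 entries, and 77.8% held it more than once, as did 13.5% of all entries. The members' windows are rich in G and C (mean 64.4% against 53.2%), and among entries of like composition the share with the core was between 32.6% and 68.5%. The full palindrome CACGTG was found before Bnip3 and Hif1a, in 22.2% of the members' entries and 6.02% of all. No share at like composition was computed for more than 1 site or for the palindrome. A match is a description of the letters in the window and does not show that the site is bound.

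The stretches printed here are those of the 5 matched members that passed the test in a comparison below. Capitals mark the core on either strand, and each stretch is the part of the window outside annotated exons, read 5′ to 3′ on the gene's strand. Bnip3 (chr7:138909520-138909756, minus strand) held 4 sites, Rora (chr9:68653536-68653785, plus strand) and Hif1a (chr12:73907617-73907866, plus strand) 2 each, and Egln1 (chr8:124949325-124949504, minus strand) 1 in the printed part. The window before the upstream start of Vegfa (chr17:46032378-46032627, minus strand) held none, and that of its other start, which lies mostly in an annotated exon and is not shown, held 2.
Bnip3: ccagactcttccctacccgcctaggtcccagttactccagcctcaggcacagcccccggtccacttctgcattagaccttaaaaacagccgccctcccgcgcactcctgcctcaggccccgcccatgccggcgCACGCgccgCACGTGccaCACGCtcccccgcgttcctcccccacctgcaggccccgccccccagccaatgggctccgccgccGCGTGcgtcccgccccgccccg
Rora: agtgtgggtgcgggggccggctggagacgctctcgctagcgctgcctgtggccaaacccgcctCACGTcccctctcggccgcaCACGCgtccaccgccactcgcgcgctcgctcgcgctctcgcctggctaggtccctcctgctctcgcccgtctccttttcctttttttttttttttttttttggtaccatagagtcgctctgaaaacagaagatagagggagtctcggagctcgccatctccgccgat
Hif1a: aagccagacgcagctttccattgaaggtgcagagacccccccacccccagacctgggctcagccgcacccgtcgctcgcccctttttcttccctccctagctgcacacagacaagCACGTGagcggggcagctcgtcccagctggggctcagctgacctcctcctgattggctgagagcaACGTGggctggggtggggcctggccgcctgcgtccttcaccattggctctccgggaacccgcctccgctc
Egln1: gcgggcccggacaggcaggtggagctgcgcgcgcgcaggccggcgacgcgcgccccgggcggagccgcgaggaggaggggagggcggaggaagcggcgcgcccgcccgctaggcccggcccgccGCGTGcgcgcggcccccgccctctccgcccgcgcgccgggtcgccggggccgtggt
Vegfa: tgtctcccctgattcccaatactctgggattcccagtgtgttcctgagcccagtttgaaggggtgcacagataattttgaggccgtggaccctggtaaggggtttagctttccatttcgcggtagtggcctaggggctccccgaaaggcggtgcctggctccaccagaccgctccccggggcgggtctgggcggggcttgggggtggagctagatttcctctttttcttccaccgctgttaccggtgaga

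Across the 9 groups the members did not share one order of levels. Vegfa and Hif1a were the highest members in all 6 MLO-Y4 groups, while Adm and Bnip3 were the highest in both young bone groups. The tables were normalized separately, so levels set across them are a description only. In bulk tissue, fewer cells of a type and less RNA per cell cannot be told apart.

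**Figure D1:**
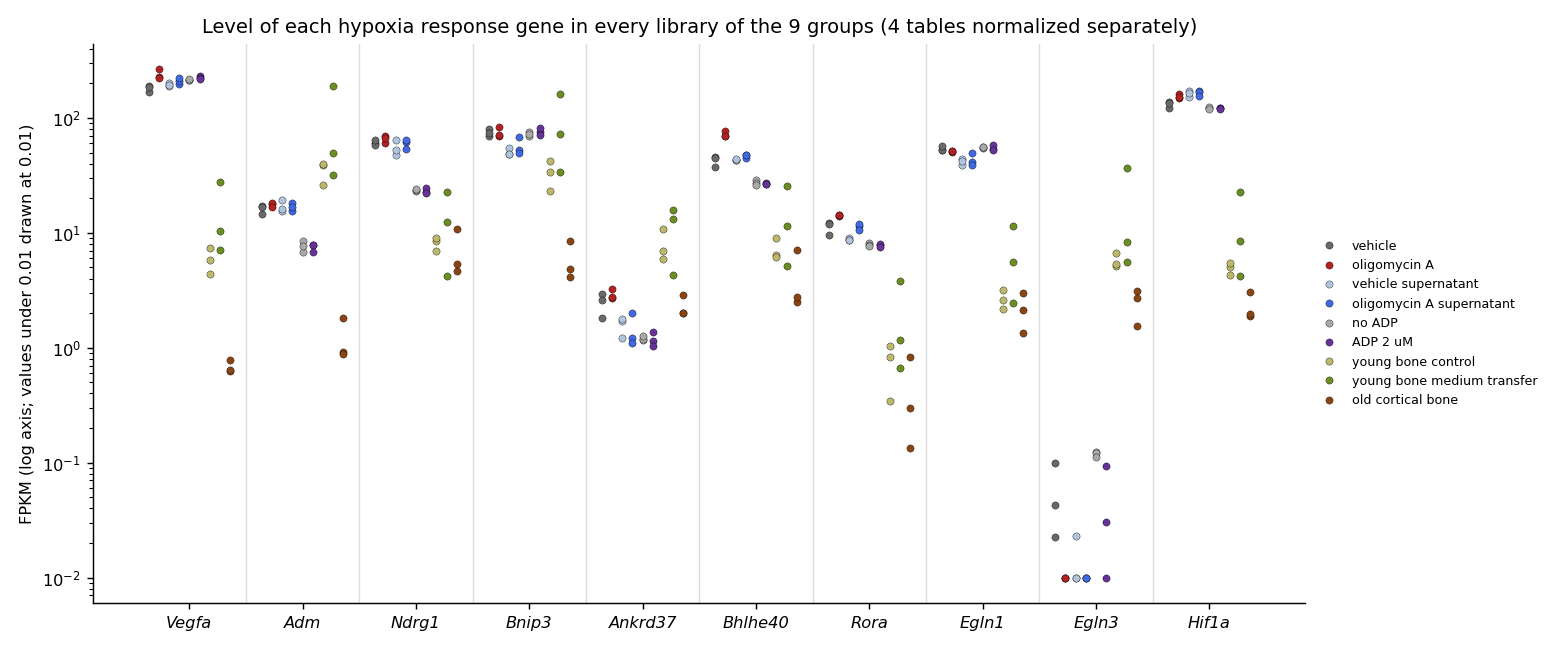
FPKM of each member in every library (points, 3 per group) on a log axis, with the 9 groups in colour and values below 0.01 drawn at 0.01. Egln3 lies near or at 0 in every MLO-Y4 library and between 1.54 and 36.4 in bone, while Vegfa runs from 169 to 265 in MLO-Y4 cells and from 0.633 to 0.788 in old bone.

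Vegfa, which encodes the main growth factor for blood vessels, had means of 182 to 238 FPKM in the 6 MLO-Y4 groups, and each of these groups overlapped its neighbour in the order. It had 5.85 ± 1.46 FPKM in control young bone and 0.685 ± 0.0888 in old bone (SD, n = 3 each), 2 groups whose libraries did not overlap. Adm, which encodes the vasodilator peptide adrenomedullin, was highest in bone culture instead, with 26.1 to 39.4 FPKM in control young bone, 14.6 to 19.3 in the oligomycin A experiment, 6.75 to 8.42 in the ADP experiment and 0.877 to 1.82 in old bone. None of these 4 ranges overlapped.

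Bnip3, a mitochondrial protein that promotes mitophagy, was at 23.3 to 42.6 FPKM in control young bone, 48.7 to 83.0 in all MLO-Y4 libraries and 4.12 to 8.47 in old bone. Ndrg1, a stress-induced protein named for its control by N-myc, had 47.7 to 69.6 FPKM in the oligomycin A experiment and 22.1 to 24.5 in the ADP experiment, ranges that did not overlap but come from separately normalized tables. It had 8.12 ± 1.01 FPKM in control young bone and 6.94 ± 3.41 in old bone (SD, n = 3 each). Ankrd37, an ankyrin-repeat protein of little known function, was low in MLO-Y4 cells at 1.04 to 3.22 FPKM and reached 5.95 to 10.8 in control young bone. Its gene span overlaps that of Ufsp2 on the opposite strand, which had means of 7.97 to 12.5 FPKM in MLO-Y4 groups. The strand setting is not stated and overlap of exons was not examined. A share of Ufsp2 reads in the Ankrd37 values was therefore not tested.

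The 2 transcription factor genes among the targets were low in bone. Bhlhe40, a transcriptional repressor that also acts in the circadian clock, had means of 26.9 to 71.8 FPKM in MLO-Y4 groups, 7.24 ± 1.58 in control young bone and 4.12 ± 2.60 in old bone (SD, n = 3 each). Rora, a nuclear receptor of the same clock, had means of 7.75 to 14.3 FPKM in MLO-Y4 groups and 0.736 and 0.423 in control young and old bone.

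The oxygen sensors split by sample type. Egln1, the main HIF prolyl hydroxylase in most cells, had 39.3 to 58.6 FPKM in MLO-Y4 libraries, 2.16 to 3.18 in control young bone and 1.35 to 2.99 in old bone. Egln3, the paralog that is itself strongly induced by HIF, was listed at 0 in all oligomycin A and oligomycin A supernatant libraries and at no more than 0.123 in any other MLO-Y4 library. It had 6.65, 5.10 and 5.40 FPKM in the control young bone libraries and 3.09, 1.54 and 2.70 in those of old bone. The ratio of Egln3 to Egln1 within a library was 1.70 to 2.56 in control young bone, 1.51 to 3.16 with medium transfer and 0.517 to 2.29 in old bone, and at most 0.00224 in MLO-Y4 libraries. Hif1a had means of 121 to 166 FPKM in MLO-Y4 groups, 4.93 ± 0.558 in control young bone and 2.30 ± 0.680 in old bone (SD, n = 3 each).

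The order of bone against the other groups depended on scaling, because satellite-like genes took most of the summed FPKM of control young bone. In FPKM, the libraries of control young and old bone overlapped for Ndrg1, Bhlhe40, Rora and Egln1. With satellite-like, rRNA-like and 7S genes set aside and the rest rescaled to a total of 1000000, a setting chosen after the data were seen, all 4 were higher in control young bone without overlap. Ndrg1 was then at 52.7 to 62.2 there and 5.92 to 13.9 in old bone, Bhlhe40 at 47.4 to 55.1 and 3.18 to 9.09, Rora at 2.50 to 7.44 and 0.171 to 1.07, and Egln1 at 18.7 to 19.2 and 1.73 to 3.81. Bnip3, below all MLO-Y4 libraries in FPKM, was at 207 to 251 in control young bone on this scale, within the 178 to 307 of MLO-Y4 libraries. Globin genes were left in the rescaled total. They made up 43.6% to 45.3% of the summed FPKM of old bone and 0.364% to 0.776% of that of control young bone. This lowers the values of old bone on this scale, and a scale without globin genes was not computed.

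Ratios to Hif1a within a library do not depend on how libraries were scaled, and differed between genes in how sample types compared. Adm to Hif1a was 0.120 to 0.124 in vehicle-treated cells, 5.19 to 9.01 in control young bone and 0.450 to 0.591 in old bone. Bnip3 to Hif1a was 0.539 to 0.577 in vehicle-treated cells, 4.64 to 7.85 in control young bone and 2.11 to 2.74 in old bone. Vegfa to Hif1a moved less between cells and young bone, at 1.37 to 1.38 and 0.878 to 1.70, and was 0.206 to 0.404 in old bone. The sums of marker genes differed between the bone groups too. Neutrophil markers (7 of 7 detected) summed to 98162 to 103718 FPKM in old bone and to 299 to 525 in control young bone, and erythroid markers (6 of 6) to 356543 to 379015 and 3838 to 8062, with none of these markers at 0 in all libraries. Their part in the levels of the members was not tested.

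**Figure D2:**
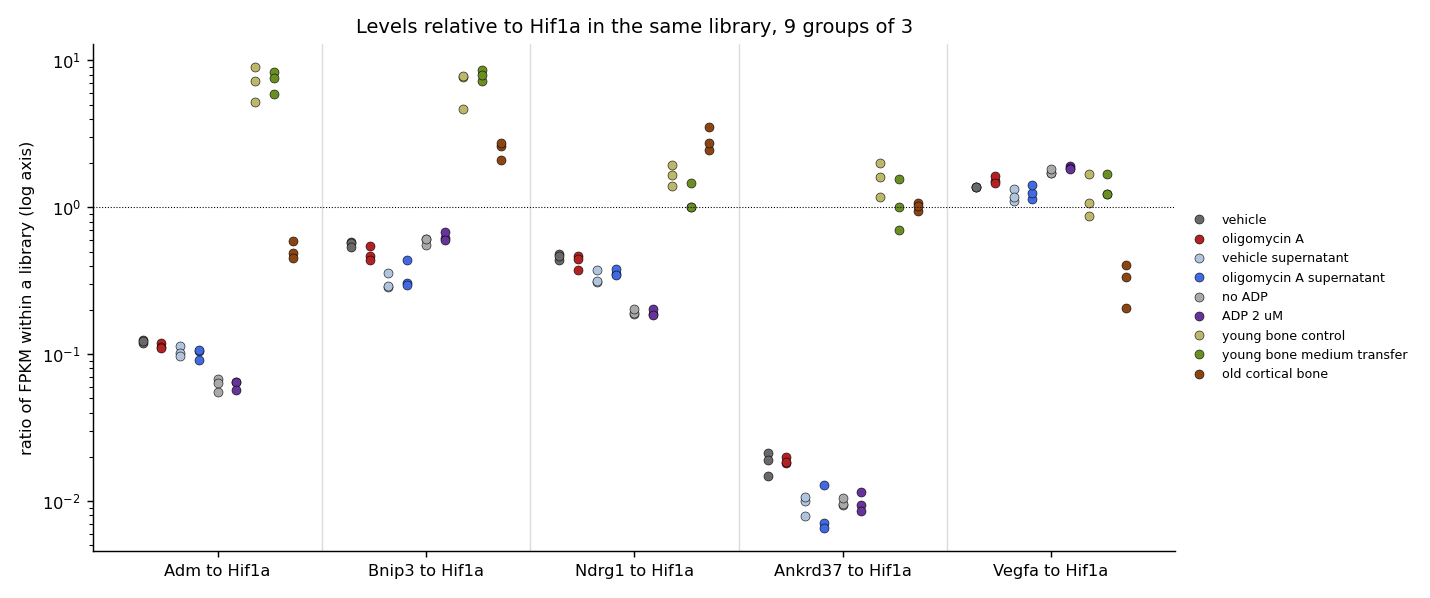
Ratio of the FPKM of Adm, Bnip3, Ndrg1, Ankrd37 and Vegfa to that of Hif1a in the same library (log axis, 1 point per library, 9 groups of 3 in colour, dotted line at a ratio of 1). Adm and Bnip3 exceed Hif1a in all young bone libraries and lie below it in all MLO-Y4 libraries.

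The first comparison asks what blocking ATP synthase did to these transcripts in treated cells. Bhlhe40, Vegfa and Rora rose in cells given oligomycin A for 1 h, and no member fell. Of the 10 members 9 passed the filter on low values (a mean of 1 FPKM over the 12 libraries), and Egln3 did not. Of all 11902 genes tested 3.71% rose, and 5.34% changed in either direction (limma on log2(FPKM + 1), adjusted p under 0.05 over all genes). The median difference of the 9 members was 0.20 on the log2 scale, beside -0.0037 over all genes, and 5 of 9 had libraries that did not overlap, as did 29.9% of all genes.

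Bhlhe40 (ENSMUSG00000030103, chromosome 6, 108660629 to 108666925, plus strand, GRCm38) had 46.0, 37.7 and 45.0 FPKM with vehicle and 69.9, 76.4 and 69.0 with oligomycin A. Every treated library lay far above every vehicle library. The difference was 0.73 ± 0.07 (SE) on the log2 scale, a 1.66-fold change, with an adjusted p of 0.000146 by limma, and it ranked 44 among all genes by p. It passed under all 13 alternatives tried, at 0.65 to 0.88.

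Vegfa (ENSMUSG00000023951, chromosome 17, 46016993 to 46032369, minus strand) had 188, 169 and 188 FPKM with vehicle and 226, 265 and 222 with oligomycin A. The groups did not overlap, and treated replicate 2 was the highest library. The difference was 0.38 ± 0.08 (SE), 1.31-fold, with an adjusted p of 0.016 by limma. It missed the threshold when treated replicate 2 was left out (0.30, adjusted p 0.0591) and when no filter was applied (adjusted p 0.0538).

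Rora (ENSMUSG00000032238, chromosome 9, 68653786 to 69388246, plus strand) had 12.1, 9.64 and 11.9 FPKM with vehicle and 14.0, 14.3 and 14.4 with oligomycin A. The treated libraries were close to each other and above all vehicle libraries, of which replicate 2, with its high share of rRNA-like genes, was the lowest. The difference was 0.33 ± 0.08 (SE), with an adjusted p of 0.0333 by limma. Its direction held under all 13 alternatives, and the call was lost under 7 of them, with adjusted p between 0.0598 and 0.106. These were the 3 that left out a treated library, the fit without a filter, the rescaling to one total, the replicate block and the fit of only the 6 libraries compared.

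Without vehicle replicate 2 the differences were 0.65 for Bhlhe40, 0.33 for Vegfa and 0.24 for Rora, and all 3 passed (limma adjusted p 0.000123, 0.0432 and 0.0401).

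**Figure D3:**
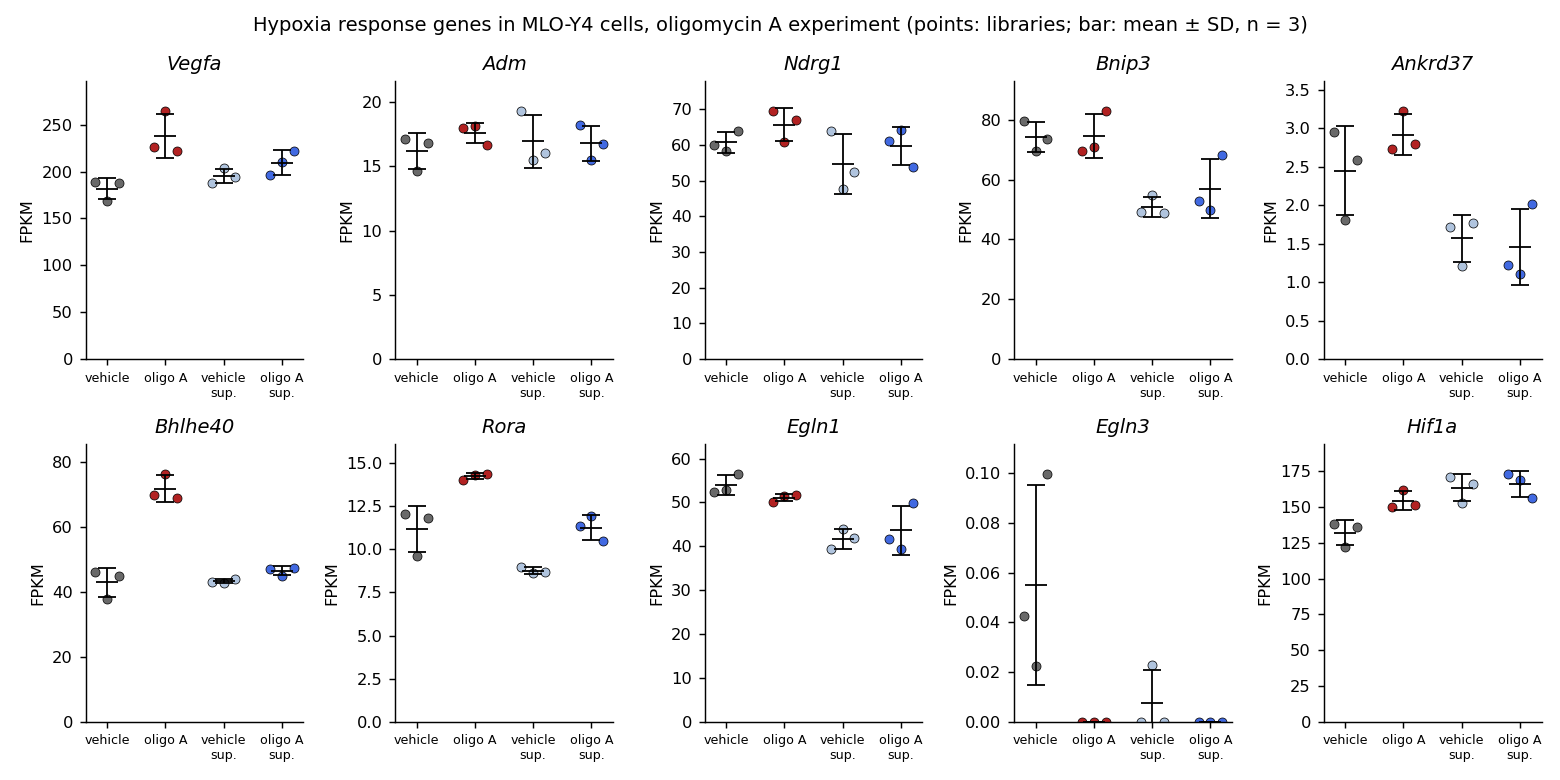
FPKM of the 10 members in the 12 libraries of the oligomycin A experiment (points), with the mean and SD of each group of 3 (bars), each panel on its own axis from 0. Bhlhe40 stands at 69.0 to 76.4 in treated cells and at 37.7 to 47.4 in the other 9 libraries, while Bnip3 and Egln1 are lower in both supernatant groups than in vehicle-treated cells.

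The other members did not pass. Hif1a (ENSMUSG00000021109, chromosome 12, 73901375 to 73947530, plus strand) had 138, 122 and 136 FPKM with vehicle and 149.8, 162 and 151 with oligomycin A, groups that did not overlap. Its difference was 0.23 ± 0.07 (SE) with an adjusted p of 0.0763 by limma, and it passed with median-of-ratios scaling (adjusted p 0.0357). Egln1 (ENSMUSG00000031987, chromosome 8, 124908587 to 124949324, minus strand) had 52.4, 52.9 and 56.6 FPKM with vehicle and 50.2, 51.4 and 51.7 with oligomycin A, which was lower without overlap, at a difference of -0.08 ± 0.08 (SE, limma adjusted p 0.613). Adm, Ndrg1 and Ankrd37 had differences of 0.12, 0.11 and 0.20 and Bnip3 of 0.01, with overlapping libraries. For Bnip3 (ENSMUSG00000078566, chromosome 7, 138890836 to 138909519, minus strand) the 95% interval of the difference was -0.24 to 0.25.

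Other genes of the pathway moved in part. The lists were drawn from general knowledge with earlier results of these data known. Beside their counts, 3.71% of all genes tested rose and 5.34% changed in either direction. Of 38 tested HIF targets that are not members, 5 rose and 0 fell, with a median of 0.03: Ddit4, an inhibitor of mTOR signalling, by 1.63, Slc2a1, the glucose transporter GLUT1, by 0.46, and Wsb1, Narf and Hk2 by 0.42, 0.31 and 0.41 on the log2 scale. Hk2 encodes hexokinase, the first enzyme of glycolysis. Ldha, lactate dehydrogenase A, at -0.29 ± 0.10, and Pgk1, phosphoglycerate kinase, at -0.04 ± 0.08, did not pass (SE, limma adjusted p 0.12 and 0.811). Without vehicle replicate 2, 2 of the 38 rose and 2 fell. With 0 that fell, 2 rose without a filter and without vehicle replicate 1, treated replicate 1 or treated replicate 3, and 3 rose without treated replicate 2, with the replicate block and with rescaling to one total. Of 10 genes of oxygen sensing and HIF degradation 1 rose, the ubiquitin ligase gene Siah2 at 0.38 (not called without treated replicate 1 or 3 or vehicle replicate 3), and of 5 tested genes of HIF subunits and coactivators 1 rose, the acetyltransferase gene Crebbp at 0.48. None of 8 tested genes of VEGF and adrenomedullin signalling and none of 5 tested paralogs of the members changed.

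The second comparison asks whether medium from treated cells acted on untreated cells. No member changed in cells given oligomycin A supernatant for 2 h against those given vehicle supernatant, where 0.386% of all genes did (46 genes by limma). At an unadjusted p under 0.05 there was 1 member, Rora, beside 8.08% of all genes. Rora had 8.98, 8.63 and 8.68 FPKM with vehicle supernatant and 11.4, 11.9 and 10.5 with oligomycin A supernatant. All 3 recipient libraries of the drug arm were higher than those of the vehicle arm. The difference was 0.33 ± 0.08 (SE) with an adjusted p of 0.149 by limma, and it passed with median-of-ratios scaling (0.34, adjusted p 0.0324).

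Bhlhe40 had 43.0, 42.8 and 44.0 FPKM with vehicle supernatant and 47.1, 45.0 and 47.4 with oligomycin A supernatant, which did not overlap, at a difference of 0.10 ± 0.07 (SE, limma adjusted p 0.835). These 2 members of 9 without overlap compare with 13.1% of all genes. Vegfa had 188, 203 and 194 against 196, 210.0 and 222 FPKM, an overlap, at 0.10 ± 0.08 (SE). Of the 38 other HIF targets 1 rose, Ddit4 at 0.62 (not called without any 1 of the vehicle supernatant replicates), and none of the other lists held a called gene. Among all genes 0.386% were called in either direction.

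The difference between the 2 responses was tested directly, as the response of recipients minus that of treated cells. Bhlhe40 responded less in recipients, by -0.63 ± 0.10 (SE) on the log2 scale with an adjusted p of 0.0192 by limma, and 0.361% of all genes were called in this direction and 0.445% in either. The direction held under all 18 alternatives, from -0.76 to -0.54, and the call was lost under 8 of them with adjusted p from 0.0505 to 0.252, among them those without treated replicate 2, oligomycin A supernatant replicate 2 and each vehicle supernatant replicate. Vegfa had -0.29 ± 0.11 (SE, adjusted p 0.366) and Hif1a -0.20 ± 0.09 (SE, adjusted p 0.474). For Rora the 2 responses were 0.33 and 0.33, and their difference of -0.0026 had a 95% interval of -0.24 to 0.24. Of the other HIF targets Ddit4 responded less in recipients, by -1.01. The treated cells were collected after 1 h and the recipients after 2 h, so duration and route of exposure cannot be told apart.

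Members also changed between the 2 control arms of this experiment. In cells given vehicle supernatant, Bnip3, Egln1 and Rora were lower and Hif1a was higher than in vehicle-treated cells. That is 1 higher and 3 lower of 9 members, beside 9.49% of all genes higher and 5.18% lower (14.7% in either direction), and 5 of 9 members did not overlap, as did 34.1% of all genes. This comparison shares its vehicle libraries with the first one and its vehicle supernatant libraries with the second. The vehicle arm was collected after 1 h with DMSO and the supernatant arm after 2 h in medium taken from vehicle-treated cultures. Duration and medium cannot be told apart.

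Bnip3 had 79.5, 69.6 and 73.4 FPKM in vehicle-treated cells and 49.0, 54.8 and 48.7 with vehicle supernatant. Every recipient library was below every vehicle library. The difference was -0.54 ± 0.11 (SE), with an adjusted p of 0.0102 by limma.

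Egln1 had 52.4, 52.9 and 56.6 FPKM in vehicle-treated cells and 39.3, 43.9 and 41.9 with vehicle supernatant, again without overlap. Its difference was -0.37 ± 0.08 (SE, limma adjusted p 0.012). Rora, at 12.1, 9.64 and 11.9 against 8.98, 8.63 and 8.68 FPKM, was lower by -0.31 ± 0.08 (SE, limma adjusted p 0.0205), but lost the call in the fit of the 6 libraries compared (adjusted p 0.0778) and when vehicle replicate 1 or 3 or vehicle supernatant replicate 2 or 3 was left out (adjusted p 0.0558 to 0.0679). Ankrd37 had 2.95, 1.81 and 2.59 against 1.72, 1.21 and 1.77 FPKM, without overlap, at -0.42 ± 0.16 (SE, limma adjusted p 0.0985), and passed without vehicle replicate 2 (-0.56, adjusted p 0.0475).

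Hif1a went the other way, from 138, 122 and 136 FPKM in vehicle-treated cells to 171, 153 and 166 with vehicle supernatant. It overlaps Gm49321 on the same strand, which had means of 0.385 to 1.75 FPKM in MLO-Y4 groups. All recipient libraries were higher for Hif1a, at 0.31 ± 0.07 (SE, limma adjusted p 0.0121). Within libraries the ratio of Bnip3 to Hif1a was 0.539 to 0.577 in vehicle-treated cells and 0.286 to 0.358 with vehicle supernatant. That of Egln1 to Hif1a was 0.380 to 0.434 and 0.229 to 0.287. Neither ratio could overlap, because each gene alone did not overlap and Hif1a moved the opposite way. The ratios therefore add no separate evidence.

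All 4 of these calls held without vehicle replicate 2, at -0.58 for Bnip3, -0.38 for Egln1, -0.41 for Rora and 0.25 for Hif1a. They held too with satellite-like, rRNA-like and 7S genes set aside before rescaling, an alternative chosen after the data were seen. After rescaling to one total none passed, and all genes then had a median of 0.14 in place of 0.03.

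**Figure D4:**
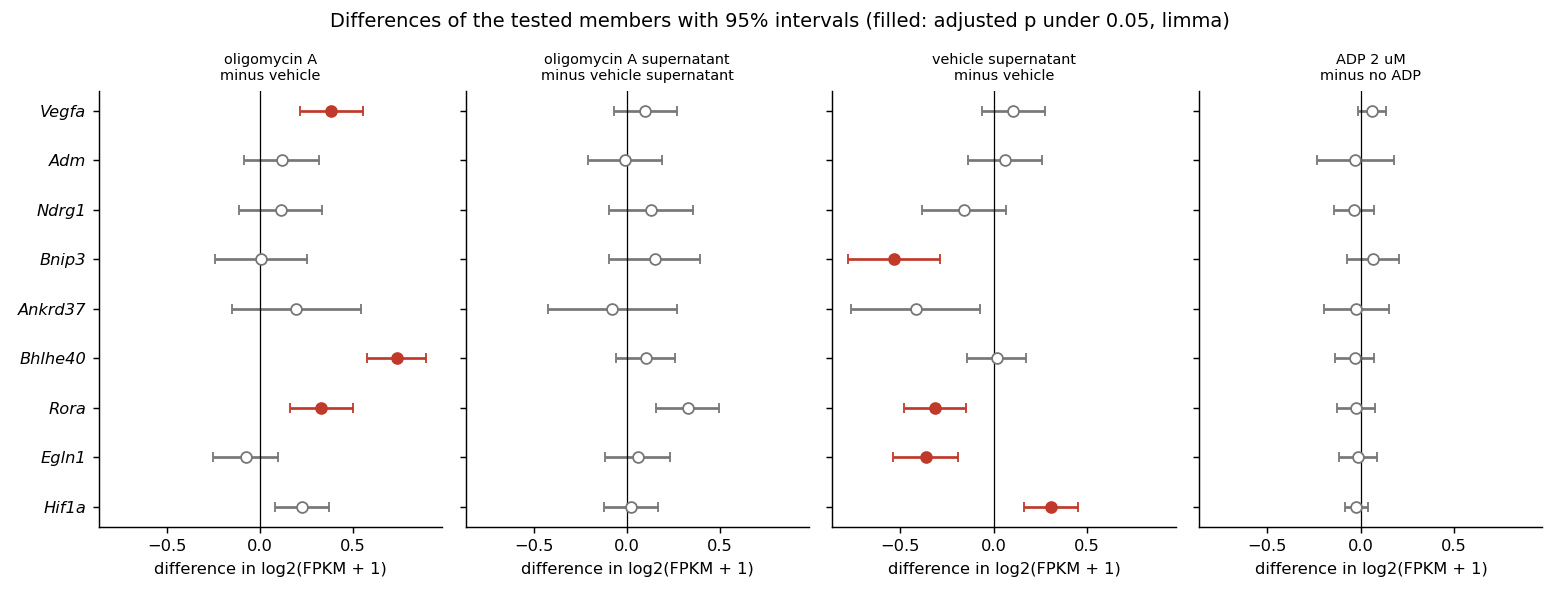
Difference in log2(FPKM + 1) of the 9 tested members with its 95% interval in 4 comparisons (filled red: limma adjusted p under 0.05). Members lie on both sides of 0 in the comparison of the 2 vehicle arms, while those of the ADP comparison lie between -0.03 and 0.07.

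The other HIF targets fell more often than they rose in the same comparison. Of 38 tested, 12 were lower and 1 higher, with a median of -0.17 beside 0.03 over all genes. Among all genes 5.18% were lower and 9.49% higher. Lower were the glycolytic enzyme genes Pfkl at -0.58, Hk1 at -0.57 and Aldoa at -0.21. So were the collagen-modifying enzyme genes P4ha2 at -0.44 and Plod1 at -0.16 and the carbonic anhydrase gene Car9 at -0.47. Pdk1, which restrains the use of pyruvate in mitochondria, was lower at -0.35, and Bnip3l, a paralog of Bnip3, at -0.27. Narf, the histone demethylase gene Kdm4b, Zfp395 and Wsb1 were lower too, between -0.52 and -0.28. Slc2a1 was higher at 0.26. The lower count was 1 with rescaling to one total, 7 in the fit of the 6 libraries compared, and 7 and 5 without vehicle replicate 1 and 3, and the median stayed below that of all genes in each.

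Hif1an, the asparaginyl hydroxylase that inhibits HIF, was also lower, at -0.25, as 1 of 10 genes of oxygen sensing and HIF degradation. Calcrl, the receptor of adrenomedullin, was higher at 0.67, as 1 of 8 tested genes of VEGF and adrenomedullin signalling, and Ndrg2, a paralog of Ndrg1, was lower at -0.49, as 1 of 5 tested paralogs. None of 5 tested HIF subunits and coactivators changed. Beside these counts, 14.7% of all genes changed in either direction.

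**Figure D5:**
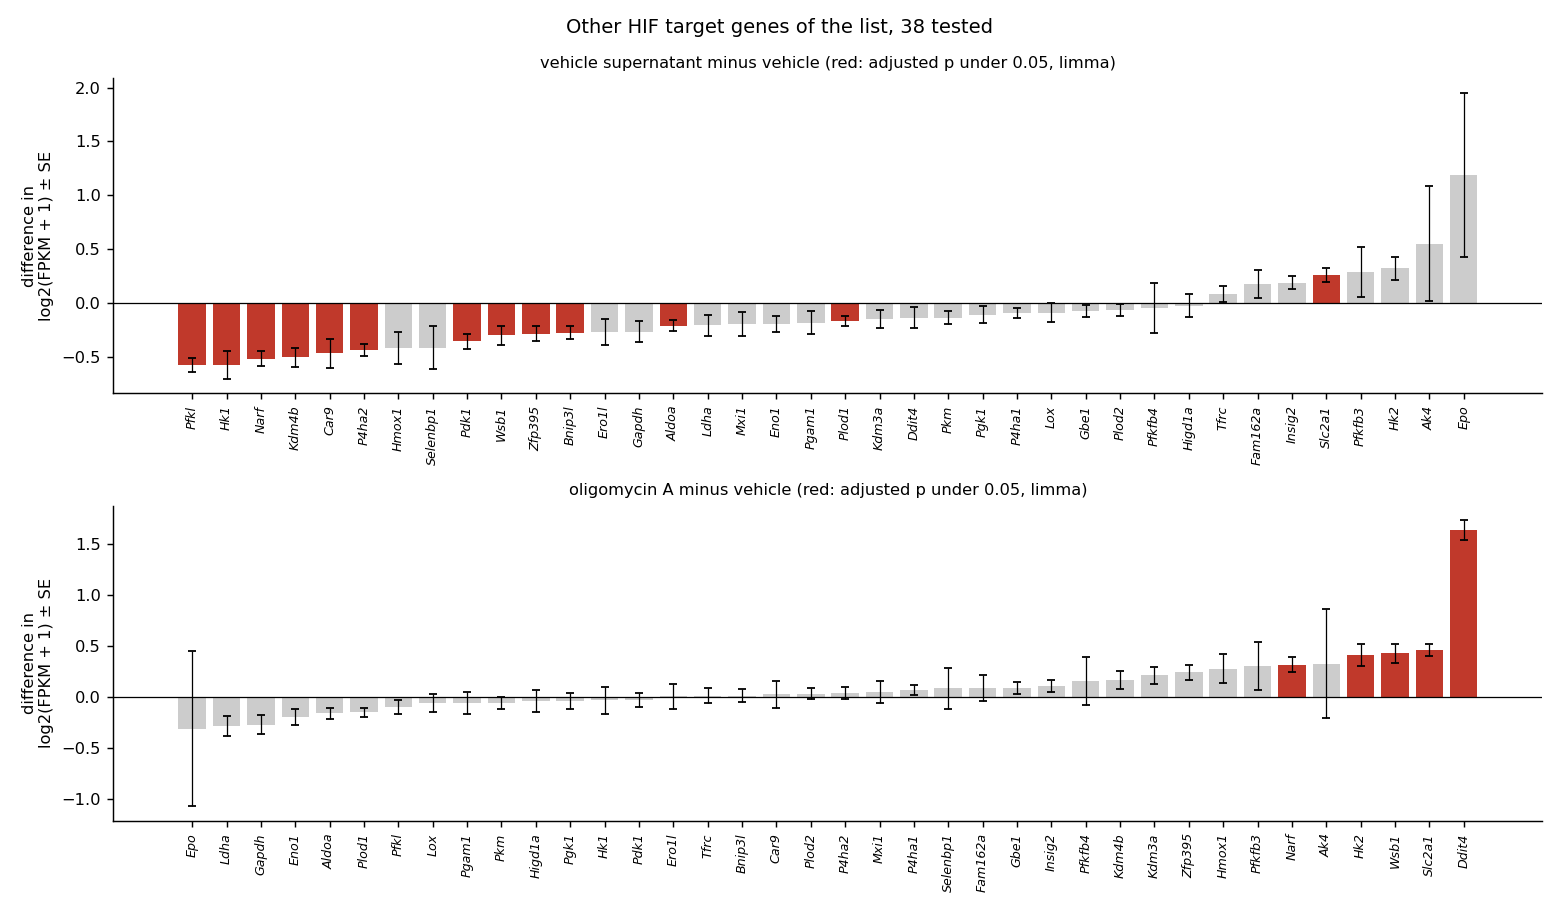
Difference in log2(FPKM + 1) ± SE of the 38 tested HIF targets that are not members, sorted within each panel (red: limma adjusted p under 0.05). In the upper panel, vehicle supernatant minus vehicle, 12 are lower and 1 is higher, beside 5.18% and 9.49% of all genes. In the lower panel, oligomycin A minus vehicle, 5 are higher, beside 3.71% of all genes.

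The ADP comparison asks whether this nucleotide, a ligand of purinergic receptors, acts on the cells. No member changed, as 0.0603% of all 11604 genes did (7 genes by limma, and 678, or 5.84%, at an unadjusted p under 0.05), and no member had an unadjusted p under 0.05. All 9 tested members had overlapping libraries, and 10.6% of all genes did not. Vegfa had 212, 213 and 219 FPKM without ADP and 231, 224 and 217 with it, a difference of 0.06 with a 95% interval of -0.02 to 0.14. Hif1a had 123, 125 and 119.6 against 122, 121 and 119 FPKM, and Bhlhe40 29.1, 27.3 and 26.1 against 27.2, 26.8 and 26.6. The widest intervals were those of Adm, -0.23 to 0.18, and Ankrd37, -0.20 to 0.15. None of the pathway lists held a called gene.

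The medium transfer comparison sets young bone titled as medium transfer against the group titled as control. Both were cultured in medium from other bone fragments, so it does not compare conditioned with fresh medium. No member passed the test, as 0.0243% of all 16438 genes did (4 genes by limma, and 368, or 2.24%, at an unadjusted p under 0.05). All 10 members had positive differences, from 0.32 ± 0.78 (SE) for Ankrd37 to 1.17 ± 0.91 for Bnip3, with adjusted p of 0.90 to 0.909, and so did 85.1% of all genes. The member median was 0.84 beside 0.45 over all genes.

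The differences came largely from 1 library. Bnip3 had 33.6, 23.3 and 42.6 FPKM in controls and 72.4, 163 and 33.7 with medium transfer. Adm had 39.0, 26.1 and 39.4 in controls and 50.0, 188 and 32.0 with transfer. Vegfa had 7.35, 4.42 and 5.78 against 10.3, 27.6 and 7.07, and Egln3 6.65, 5.10 and 5.40 against 8.38, 36.4 and 5.62. Transfer replicate 2 was the highest of the 6 libraries for each of the 10 members. The groups overlapped for all 10, while 4.08% of all genes had libraries that did not overlap. It is also the library with 5.80% of summed FPKM in satellite-like genes, where the others had 66.1% to 89.9%. Summed marker levels overlapped for macrophage and osteoclast markers (6 of 6 found), at 706 to 881 FPKM in controls and 802 to 5030 with transfer. They also overlapped for endothelial markers (4 of 4), at 6.41 to 7.75 and 5.24 to 34.2, and osteocyte markers (8 of 8), at 468 to 1033 and 300 to 1774. The osteoblast, neutrophil, B lineage and muscle sums overlapped too. Without overlap, erythroid markers (6 of 6) were at 3838 to 8062 and 10507 to 20877, and adipocyte markers (4 of 4) at 3.75 to 4.27 and 9.83 to 95.3. No marker of these lists was at 0 in all libraries of a group. The sums are in FPKM and depend on library scaling too. Their part in the result was not tested. Without this library the member median was 0.24 beside 0.29 over all genes, and the differences were 0.60 for Bnip3, 0.50 for Vegfa, -0.0027 for Ankrd37 and -0.12 for Ndrg1, while Rora did not pass the filter.

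Setting satellite-like, rRNA-like and 7S genes aside and rescaling what remained, an alternative chosen after the data were seen, brought the libraries closer. Of a rescaled total of 1000000, Bnip3 then made up 246, 207 and 251 in controls and 306, 383 and 331 with transfer. Egln1 made up 19.0, 19.2 and 18.7 in controls and 23.4, 27.0 and 24.1 with transfer. These were the 2 of 10 members whose transfer libraries were all higher, as in 3.01% of the 18000 genes tested, and neither passed by limma (adjusted p 1.0 for both). The differences were 0.52 for Bnip3 and 0.31 for Egln1, with -0.29 for Ankrd37 and -0.24 for Ndrg1, and the member median was 0.27 beside -0.02 over all genes. The ratio of Bnip3 to Hif1a, at 4.64 to 7.85 in controls and 7.27 to 8.58 with transfer, overlapped.

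Genes with the pattern most like that of a member were sought over the 4 groups of the oligomycin A experiment (12 libraries). The measure was the smallest distance between centred group means of log2(FPKM + 1). It was taken among 6610 genes with a mean of at least 5 FPKM, and genes with a predicted name (Gm or Rik) or none were left out. For Bhlhe40 these were Snhg1 and Snhg5, hosts of small nucleolar RNAs, and Angptl4, a secreted inhibitor of lipoprotein lipase, at distances of 0.12, 0.13 and 0.14. Angptl4 had means of 10.1, 17.1, 11.3 and 10.8 FPKM in vehicle, oligomycin A, vehicle supernatant and oligomycin A supernatant. For Vegfa they were Flcn, Lima1 and Zfp622, at 0.02, 0.03 and 0.04, and for Bnip3 they were Ulk1, a kinase that starts autophagy, Mpp2 and Tmem38a, at 0.03, 0.05 and 0.05. Ulk1 had means of 14.6, 14.3, 9.57 and 10.5 FPKM in the same order of groups.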

How the data were processed

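Per the labels' protocols, RNA was selected with oligo(dT) beads, made into libraries and sequenced on an Illumina instrument. The authors deposited 4 tables of FPKM values per gene, and HTSeq and mm10 appear in the submitters' processing notes without a stated use. How FPKM was computed, and the strand setting, are not given in the sources used here. At the estimated depths, 24.4% to 48.9% of low values lay within 0.1 of a whole number, against 20% if spread evenly. Most did not come out as whole reads, so no count test was run.

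Each table was fitted alone with limma 3.58.1 (R 4.3.3, trended prior) on log2(FPKM + 1), for genes with a mean of at least 1 FPKM, with Benjamini-Hochberg adjustment over all genes tested. The 4 groups of the oligomycin A experiment shared 1 fit. Fold changes are on this log2 scale, which understates changes of low genes. Samples were grouped by title and treatment label. The members, pathway lists and marker lists were chosen with earlier results of these data known, and all members are named. Of the list of other HIF targets, 1 gene is not reported here and was left out of its counts. Positions come from GENCODE M21 (GRCm38), where 55154 gene IDs were found. Other pseudocounts, filters, scalings, a replicate block and each library left out were tried. The fitting code was tested on simulated data.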

Additional observations from a re-analysis of the deposited data

Results flagged for a closer look

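Bhlhe40 differed between the 2 ways of exposure by a test of the interaction: its response in supernatant recipients minus that in treated cells was -0.63 ± 0.10 (SE) on the log2 scale, with an adjusted p of 0.0192 by limma and a range of 0.00223 to 0.252 over the alternatives. All 3 treated libraries were above all 3 vehicle libraries, at 69.0 to 76.4 against 37.7 to 46.0 FPKM, while recipients had 45.0 to 47.4 against 42.8 to 44.0 FPKM.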

How the results depend on the processing

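Of 740 gene values under alternatives, 667 kept their direction and their side of the threshold, 26 lost a call, 3 gained one and 44 changed sign. None of those that changed sign was called, and the largest was 0.29 in size. The cause was not tested. The count of members higher with oligomycin A was 3, and 1 without a filter, where more genes are tested, and 1 to 3 when 1 library was left out. With median-of-ratios scaling 1 member, Rora, was higher in oligomycin A supernatant, instead of 0. The 1 member with a lower response in recipients was 0 without a filter, when rescaled to one total and with the replicate block, and 0 to 1 when 1 library was left out. Rescaling to one total, in which rRNA-like genes are counted, left 0 higher and 0 lower with vehicle supernatant instead of 1 and 3. Replicate numbers showed no sign of pairing samples (same-number correlations -0.14 to 0.0587, -0.00609 to 0.0379 and -0.228 to -0.0789 in the 3 tables). Samples with different numbers reached a correlation of 0.22 in the oligomycin A experiment. Shared cultures or batches were not tested. With the replicate block, 318 genes rose and 116 fell with oligomycin A, 8 and 27 were called for the difference of responses, and 0 for ADP.

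Counts over all genes ranged over alternatives from 265 to 1168 for oligomycin A (636 as reported), from 7 to 81 for oligomycin A supernatant (46), from 31 to 108 for the difference of responses (53), from 587 to 2206 for vehicle supernatant (1746), from 0 to 40 for ADP (7) and from 0 to 7 for young bone (4). Without vehicle replicate 2, 286 rose and 366 fell with oligomycin A instead of 442 and 194, and 628 rose and 731 fell with vehicle supernatant instead of 1129 and 617. With median-of-ratios scaling these were 762 and 406, and 1179 and 1027.

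For oligomycin A, values that changed sign were Egln1 at 0.074 rescaled to one total. With 1 library left out for oligomycin A, the ranges that crossed 0 were Bnip3 from -0.073 to 0.056. For oligomycin A supernatant, values that changed sign were Adm at 0.00048 with median-of-ratios scaling, Adm at 0.0058 rescaled to one total and Adm at 0.0049 with repeat genes set aside. With 1 library left out for oligomycin A supernatant, the ranges that crossed 0 were Hif1a from -0.024 to 0.065, Adm from -0.067 to 0.082, Ankrd37 from -0.24 to 0.020 and Egln1 from -0.039 to 0.13. For the difference of responses, values that changed sign were Rora at 0.0028 with a pseudocount of 0.1, Rora at 0.0022 with median-of-ratios scaling, Ndrg1 at -0.11 rescaled to one total and Rora at 0.0098 with repeat genes set aside. With 1 library left out for the difference of responses, the ranges that crossed 0 were Ndrg1 from -0.072 to 0.14 and Rora from -0.056 to 0.092. For vehicle supernatant, values that changed sign were Bhlhe40 at -0.012 with median-of-ratios scaling and Bhlhe40 at -0.0048 with repeat genes set aside. With 1 library left out for vehicle supernatant, the ranges that crossed 0 were Adm from -0.032 to 0.12 and Bhlhe40 from -0.071 to 0.069. With 1 library left out for ADP, the ranges that crossed 0 were Ankrd37 from -0.081 to 0.025, Adm from -0.095 to 0.036, Egln1 from -0.058 to 0.015, Bhlhe40 from -0.067 to 0.0076 and Rora from -0.048 to 0.00040. For young bone, values that changed sign were Ndrg1 at -0.11 and Ankrd37 at -0.17 with median-of-ratios scaling, and Ndrg1 at -0.24 and Ankrd37 at -0.29 with repeat genes set aside. With 1 library left out for young bone, the ranges that crossed 0 were Ndrg1 from -0.12 to 0.97 and Ankrd37 from -0.0027 to 0.83. Repeat genes are satellite-like, rRNA-like and 7S genes, and setting them aside was chosen after seeing the data. The young bone values may also be limited by low depth, which was only roughly estimated.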
